A study of Mus musculus with 17 samples.

Results

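Reactive astrocyte genes are the transcripts that astrocytes raise after injury or inflammation, and 10 of them, Gfap, Vim, Serpina3n, Cd44, Lcn2, Osmr, Cp, S1pr3, Aspg and Timp1, were followed by name through the 38355 identifiers counted in the hippocampus of young and old mice. The genes were taken as a list of names, each matched to 1 Ensembl identifier. The rule uses no threshold on measured values, but the list was drawn up with earlier results of these data known. The samples were hand-dissected hippocampi of untreated wild-type C57BL/6J mice, whose polyA RNA was sequenced as single-end libraries at 3 months (3M, n = 5) and 24 months (24M, n = 6) and as paired-end libraries at 3 months (3M, n = 3) and 29 months (29M, n = 3). The oldest mice were bought as aged animals and then kept for further months where the study was done, so housing and age cannot be told apart in that group, and the labels give no sex. Aged and 3M samples were compared within a library type, to ask which of these genes changed with age.

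Astrocytes support synapses, blood vessels and the ion and transmitter balance of nervous tissue. After damage, and in the aging brain, they can become reactive, a state marked by more intermediate filament protein, by secreted protease inhibitors and by receptors for cytokines of the interleukin 6 (IL-6) family. Oncostatin M is 1 such cytokine, and its receptor subunit OSMR pairs with gp130 (Il6st) and signals through JAK kinases and STAT3.

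Between 9213474 and 28438296 reads were counted on genes per library. Values below are in CPM, the counts on a gene scaled to a fixed library total, after TMM scaling, which corrects those totals for differences in composition. Of the library pairs compared, 24M replicates 1 and 4 differed by less than the sampling noise (mean squared difference over its binomial variance 0.406, against 1.23 or more in the other 135 pairs), so their average was counted as 1 sample and n = 5 at 24M. Replicate 4 of the 3M single-end group stood apart in its summed striatal marker level (646 CPM, against 273 to 332 in the other 3M single-end samples). As a reference for astrocytes in the tissue, 15 homeostatic astrocyte genes were listed. All of them were detected, with a summed level of 8330 to 9680 CPM over all samples. Markers of neurons, microglia and oligodendrocytes were detected as well, so detection does not show which cells the reads of the members came from. In RNA from whole tissue, more cells of a type and more RNA per cell cannot be told apart.

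At 24M, 4 of the 10 genes were called higher and 0 lower, and at 29M 7 were called higher and 0 lower among the 9 abundant enough for edgeR to test. Calls needed a Benjamini-Hochberg adjusted p of at most 0.05, taken over all genes tested in edgeR's quasi-likelihood fit, and a log2 fold change of 0.5 or more in either direction. Over all genes, 1.34% of 15683 were called higher and 0.638% lower at 24M, and 1.34% of 15097 were called higher and 0.113% lower at 29M. Gfap, Vim, Serpina3n and Osmr made up the calls at 24M, and each was called again at 29M. Cd44, Aspg and Timp1 were called at 29M and not at 24M, a contrast whose own test is given further on. The median log2 fold change of the tested members was 0.60 at 24M and 0.80 at 29M, beside -0.00319 and -0.0021 over all tested genes. Timp1 passed the filter at 29M through the 29M samples alone, so the count and median at 29M are a description.

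**Figure D1:**
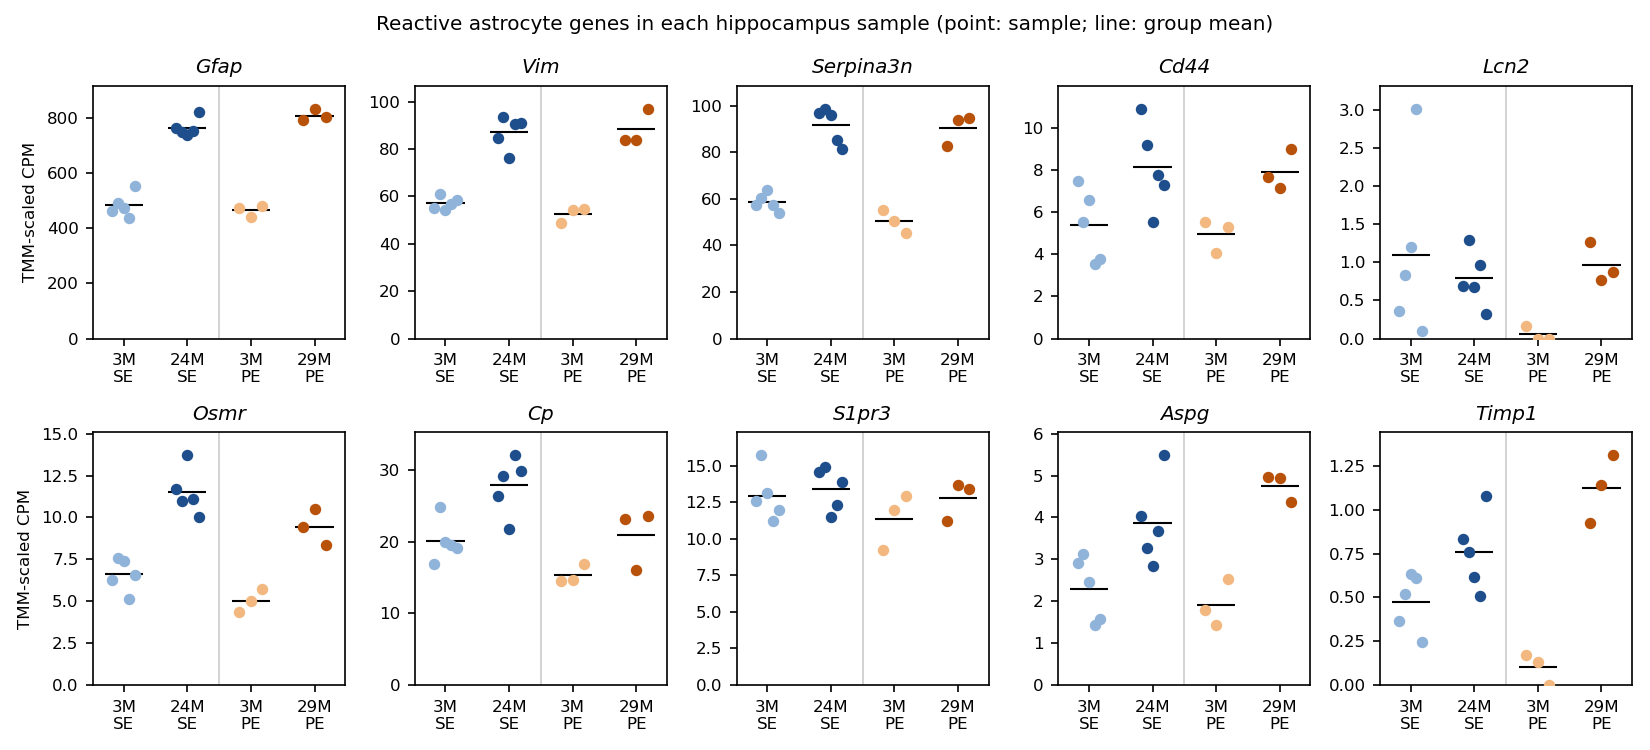
TMM-scaled CPM of each of the 10 genes in each sample, with the 3M and 24M single-end (SE) samples on the left of each panel and the 3M and 29M paired-end (PE) samples on the right; points are samples, the point for 24M replicates 1 and 4 is their average, and lines are group means. Gfap, Vim, Serpina3n and Osmr show no overlap between aged and 3M samples of the same library type, whereas S1pr3 overlaps at both ages.

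The cytoskeletal members were among the clearest. Gfap, the intermediate filament protein that defines the astrocyte skeleton (ENSMUSG00000020932, chromosome 11 of GRCm38, 102887336 to 102900912, minus strand), measured 465, 494, 473, 437 and 553 CPM in the 3M single-end samples and 766, 750, 740, 753 and 824 CPM in the 24M samples. In the paired-end samples it measured 474, 442 and 481 CPM at 3M and 793, 834 and 803 CPM at 29M. The lowest aged value exceeded the highest 3M value in both comparisons, a separation found for 3.15% of all tested genes at 24M and 11.9% at 29M. Gfap rose by a log2 fold change of 0.66 at 24M (SE 0.06, adjusted p = 8.8e-05) and 0.80 at 29M (SE 0.04, adjusted p = 7.42e-07), and ranked 5 of all tested genes by p at 24M and 2 at 29M.

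Vim, the vimentin filament protein that forms filaments together with GFAP and is also made by endothelial and ependymal cells (ENSMUSG00000026728, chromosome 2, 13573927 to 13582826, plus strand), measured 55.1, 61.0, 54.3, 56.6 and 58.6 CPM in the 3M single-end samples and 84.8, 93.6, 76.3, 90.5 and 90.8 CPM at 24M. The paired-end values were 48.7, 54.1 and 54.5 CPM at 3M and 83.8, 84.0 and 96.9 CPM at 29M. The groups did not overlap at either age. Vim rose by 0.61 on the log2 scale at 24M (SE 0.06, adjusted p = 0.000153) and by 0.75 at 29M (SE 0.07, adjusted p = 4.42e-05). Summed endothelial markers overlapped between 3M and aged samples in both comparisons (226 to 285 CPM at 3M and 262 to 294 CPM at 24M, 221 to 259 CPM at 3M and 206 to 232 CPM at 29M). Of the 8 endothelial markers, 1 was called lower at 24M, beside 0.638% of all genes. It was Cldn5, with -0.60 (SE 0.13, adjusted p = 0.0242). At 29M 0 were called, but 0 of the 8 lay above 0, beside 49.4% of all genes, and the list median was -0.14 on the log2 scale. Summed ependymal markers also overlapped. They ran from 46.9 to 95.6 CPM in the 3M single-end samples and from 64.2 to 70.5 CPM at 24M. In the paired-end samples they ran from 61.1 to 78.5 CPM at 3M and from 64.7 to 80.4 CPM at 29M. Mural marker sums lay apart in the single-end samples, at 195 to 243 CPM at 3M and 245 to 309 CPM at 24M. They overlapped in the paired-end samples, at 223 to 243 CPM at 3M and 178 to 246 CPM at 29M. Fibroblast and meningeal sums overlapped in both comparisons, with 2 of 9 markers called higher at 24M and 0 at 29M. The part of any of these cells in the Vim values was not tested.

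Of 13 intermediate filament genes, all tested at both ages, Gfap and Vim were the 2 called at each age. The list median was 0.03 at 24M and -0.03 at 29M on the log2 scale. Nes, the nestin filament protein that reactive astrocytes can also make, was not called. Its level was 14.7 ± 1.67 CPM in the 3M single-end group (SD, n = 5) and 15 ± 1.45 CPM at 24M (SD, n = 5), a log2 fold change of 0.03 (SE 0.09), and the log2 fold change at 29M was 0.13 (SE 0.11).

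Among the secreted members, Serpina3n, an inhibitor of serine proteases (ENSMUSG00000021091, chromosome 12, 104406729 to 104414329, plus strand), changed about as much as the filament genes. It measured 57.6, 60.4, 63.9, 57.6 and 54.0 CPM in the 3M single-end samples and 97.0, 98.7, 96.2, 85.3 and 81.4 CPM at 24M. In the paired-end samples it measured 55.4, 50.5 and 45.2 CPM at 3M and 82.9, 93.9 and 94.8 CPM at 29M. No aged sample overlapped the 3M samples of its library type. Serpina3n rose by 0.64 on the log2 scale at 24M (SE 0.07, adjusted p = 0.000172) and by 0.84 at 29M (SE 0.07, adjusted p = 3.68e-05). It belongs to a cluster of related genes, of which 11 were listed here and only Serpina3n and Serpina3g passed the filter. Serpina3g, at 1.54 ± 0.977 CPM in the 3M single-end group (SD, n = 5), was not called at either age. Reads without a unique alignment were counted on no gene, and made up 10.79% to 26.62% of a library's total. How many of them came from this cluster was not tested.

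Timp1, an inhibitor of matrix metalloproteinases (ENSMUSG00000001131, chromosome X, 20870166 to 20874735, plus strand), was rare in every library. The 3M paired-end libraries held 2, 2 and 0 reads and the 29M libraries 11, 12 and 18, which is 0.170, 0.131 and 0 CPM against 0.925, 1.14 and 1.31 CPM. In the single-end samples Timp1 measured 0.364, 0.520, 0.636, 0.611 and 0.247 CPM at 3M and 0.834, 0.759, 0.619, 0.509 and 1.08 CPM at 24M. The paired-end groups lay apart, whereas the single-end groups overlapped. At 29M Timp1 met the thresholds, with a log2 fold change of 3.32 (SE 0.52, adjusted p = 0.00364). It was tested there only because of its 29M reads, so this value and call are a description. From the summed reads, 41 against 4, the ratio was 10.8 with an exact 95% interval of 3.90 to 41.4 for counting error only. At 24M the log2 fold change was 0.59 (SE 0.30, adjusted p = 0.23) and Timp1 was not called. DESeq2 with a prior that pulls fold changes towards 0 gave 0.14 at 29M, under the fold change threshold, and the filter at 1 CPM removed the gene.

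Timp1 lies inside Syn1, a synaptic vesicle gene on the opposite strand, and shares 0 exonic bases with it. The strand setting of the counting is not stated, so reads from within Syn1 and from Timp1 cannot be told apart. Syn1 itself measured 516 ± 31.8 CPM in the 3M paired-end group (SD, n = 3) and 501 ± 17.7 CPM at 29M (SD, n = 3), a log2 fold change of -0.04 (SE 0.05, adjusted p = 0.716). Of the 5 metalloproteinase inhibitor genes, Timp1 at 29M was the single call at either age. Timp2 and Timp3, which inhibit the same enzyme family, measured 402 ± 28.8 and 89.7 ± 12.1 CPM in the 3M paired-end group (SD, n = 3). The log2 fold change of Timp2 was -0.06 (SE 0.11) at 24M and -0.04 (SE 0.05) at 29M. Timp3 passed the adjusted p at 24M with 0.39 (SE 0.09, adjusted p = 0.0294), under the fold change threshold, as did Timp4 in the other direction with -0.28 (SE 0.07, adjusted p = 0.0344). At 29M the values were 0.26 (SE 0.08) for Timp3 and -0.01 (SE 0.07) for Timp4, and neither passed. Of 13 listed metalloproteinases 11 were tested at each age and 0 were called. Mmp3 and Mmp12 were too low to be tested. Mmp3 measured 0.0173 ± 0.0243 CPM in the 3M single-end group and 0.532 ± 0.214 CPM at 24M (SD, n = 5 each). In the paired-end groups it measured 0 CPM at 3M and 0.593 ± 0.179 CPM at 29M (SD, n = 3 each). Mmp12 measured 0.0169 ± 0.0237 and 0.764 ± 0.245 CPM in the single-end groups. Its paired-end values were 0.0599 ± 0.104 and 0.61 ± 0.296 CPM. Mmp14, a membrane-bound collagenase, measured -0.40 (SE 0.09, adjusted p = 0.0242) at 24M, under the threshold, and 0.04 (SE 0.10) at 29M. Mmp2, which Mmp14 activates, measured -0.11 (SE 0.15) and -0.11 (SE 0.18).

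Lcn2, a secreted lipocalin that binds iron-carrying siderophores and is stored in neutrophil granules (ENSMUSG00000026822, chromosome 2, 32384633 to 32388252, minus strand), was rare in every library. The 3M paired-end libraries held 2, 0 and 0 reads and the 29M libraries 15, 8 and 12. All 29M samples lay above the 3M paired-end samples, with a ratio of summed reads, 35 against 2, of 18.4 and an exact 95% interval of 4.72 to 158 for counting error only. The default filter removed the gene from the 29M comparison, and its fitted values under settings that kept it are a description. The log2 fold change was 3.96 (SE 0.73, adjusted p = 5.62e-06) in edgeR without a filter and 4.02 (SE 1.38, adjusted p = 0.285) with all 4 groups in 1 fit, where it was not called. Leaving out 1 library gave 6.61 without 3M paired-end replicate 1, the only one of that group with reads, and 3.32 to 4.1 in the other 3 such fits that kept the gene. In the single-end libraries the 3M samples spanned 0.0988 to 3.01 CPM (median 0.831) and the 24M samples 0.323 to 1.29 CPM (median 0.695). The highest value of all, 3.01 CPM from 59 reads, came from 3M single-end replicate 4, the library with the high striatal markers. The log2 fold change at 24M was -0.43 (SE 0.61, adjusted p = 0.686), and without that replicate 0.31 (SE 0.50, adjusted p = 0.742), so Lcn2 was not called and its direction rested on 1 library.

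The neutrophil marker sum was low in every sample, between 0.799 and 5.46 CPM, and 1 of its 8 markers was at 0 reads in the 29M group and 2 in the 3M paired-end group. In the 29M samples it measured 2.10, 2.28 and 0.799 CPM and in the 3M paired-end samples 0.934, 0.851 and 1.26 CPM, and the groups overlapped. Its part in the Lcn2 values was not tested. Of the 3 listed Lcn2 receptor genes, all tested, 0 were called at either age. Slc22a17, the receptor named for Lcn2 uptake, measured 777 ± 28.9 CPM in the 3M paired-end group (SD, n = 3) and 777 ± 17.1 CPM at 29M (SD, n = 3), a log2 fold change of 0.00 (SE 0.04), with -0.09 (SE 0.06) at 24M.

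Among the receptors, Osmr was called at both ages. Osmr, the ligand-specific subunit of the oncostatin M receptor (ENSMUSG00000022146, chromosome 15, 6813577 to 6874969, minus strand), measured 6.27, 7.59, 7.42, 5.15 and 6.57 CPM in the 3M single-end samples and 11.7, 11, 13.7, 11.1 and 10 CPM at 24M. The paired-end values were 4.33, 5.04 and 5.75 CPM at 3M and 9.42, 10.5 and 8.36 CPM at 29M. The lowest aged sample lay above the highest 3M sample in both comparisons. Osmr rose by 0.81 on the log2 scale at 24M (SE 0.12, adjusted p = 0.00304), the largest change among the 4 members called there, and by 0.89 at 29M (SE 0.14, adjusted p = 0.00442). DESeq2 with a prior gave 0.35 at 29M, under the fold change threshold.

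For the rest of the IL-6 family system the lists are too short to set their counts apart from the 1.34% of all genes called higher. Of 7 receptor genes, 6 were tested at each age and Osmr was the 1 called. Il6st, the shared signal subunit gp130, measured 98.0 ± 4.25 CPM at 3M (SD, n = 5) and 97.6 ± 3.45 CPM at 24M (SD, n = 5), with log2 fold changes of -0.01 (SE 0.05) at 24M and 0.10 (SE 0.04, adjusted p = 0.266) at 29M. Lifr, the leukemia inhibitory factor receptor, passed the adjusted p at 24M with 0.30 (SE 0.06, adjusted p = 0.0151), under the fold change threshold, and measured 0.14 (SE 0.05, adjusted p = 0.218) at 29M. Of 8 ligand genes 4 were tested at each age and 0 were called. Osm, the ligand oncostatin M itself, was too low to be tested, at 0.0518 ± 0.0465 CPM in the 3M paired-end group (SD, n = 3) and 0.356 ± 0.0679 CPM at 29M (SD, n = 3).

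All 10 listed genes of JAK-STAT3 signalling were tested, with 0 called at 24M and 2 called higher at 29M. These were Socs3, a feedback inhibitor induced by STAT3, with 1 (SE 0.25, adjusted p = 0.0452), and Ptpn6, a phosphatase of blood and microglial cells, with 0.70 (SE 0.16, adjusted p = 0.0366). Socs3 measured 0.20 (SE 0.19, adjusted p = 0.533) at 24M. Stat3 passed the adjusted p at 29M with 0.33 (SE 0.06, adjusted p = 0.00556), under the fold change threshold, and measured 0.18 (SE 0.05, adjusted p = 0.0701) at 24M. The list medians were 0.07 at 24M and 0.09 at 29M.

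Cd44, the cell surface receptor for hyaluronan (ENSMUSG00000005087, chromosome 2, 102811141 to 102901665, minus strand), measured 7.50, 5.51, 6.57, 3.52 and 3.76 CPM in the 3M single-end samples and 10.9, 9.18, 5.52, 7.75 and 7.31 CPM at 24M. In the paired-end samples it measured 5.52, 4.06 and 5.31 CPM at 3M and 7.65, 7.13 and 9.01 CPM at 29M. The single-end groups overlapped and the paired-end groups did not. The log2 fold change was 0.58 at 24M (SE 0.22, adjusted p = 0.116) and Cd44 was not called there. At 29M it rose by 0.70 (SE 0.16, adjusted p = 0.029). That call was lost without 3M paired-end replicate 2 (0.56, adjusted p = 0.117), 3M paired-end replicate 3 (0.75, adjusted p = 0.0764), 29M replicate 1 (0.73, adjusted p = 0.119) or 29M replicate 3 (0.59, adjusted p = 0.166). It was also lost under DESeq2 (0.69, adjusted p = 0.0653), under DESeq2 with a prior (0.25, adjusted p = 0.0667), and with all 4 groups in 1 fit (0.69, adjusted p = 0.403).

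Of 13 listed CD44 ligands, hyaluronan enzymes and linker genes, the test covered 12 at 24M and 11 at 29M, with 0 called at either age. Spp1, the CD44 ligand osteopontin that microglia also secrete, measured 8.55 ± 2.83 CPM at 3M (SD, n = 5) and 15.7 ± 5.44 CPM at 24M (SD, n = 5). Its log2 fold change was 0.86 (SE 0.27, adjusted p = 0.0732) at 24M and 0.75 (SE 0.27, adjusted p = 0.167) at 29M, so it did not pass.

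S1pr3, a G protein-coupled receptor for sphingosine-1-phosphate (ENSMUSG00000067586, chromosome 13, 51408639 to 51422797, plus strand), measured 12.6, 15.7, 13.1, 11.2 and 12 CPM in the 3M single-end samples and 14.6, 14.9, 11.5, 12.3 and 13.9 CPM at 24M. The paired-end values were 9.25, 12 and 12.9 CPM at 3M and 11.2, 13.7 and 13.4 CPM at 29M. The groups overlapped at both ages. The log2 fold changes were 0.05 (SE 0.10, adjusted p = 0.805) and 0.17 (SE 0.13, adjusted p = 0.547), and S1pr3 was not called under any setting tried. Of the 12 listed genes of the sphingosine-1-phosphate system, the test covered all 12 at 24M and 11 at 29M, with 0 called. S1pr1, a receptor of the same ligand on astrocytes and endothelial cells, measured -0.05 (SE 0.05) and -0.12 (SE 0.05, adjusted p = 0.204). Sphk1, the kinase that makes the ligand, measured 0.47 (SE 0.26, adjusted p = 0.276) and 0.69 (SE 0.26, adjusted p = 0.184).

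The members with metabolic roles are Cp and Aspg. Cp, the copper-carrying ferroxidase ceruloplasmin (ENSMUSG00000003617, chromosome 3, 19957054 to 20009145, plus strand), measured 16.8, 24.8, 19.9, 19.5 and 19.1 CPM in the 3M single-end samples and 26.4, 29.1, 21.8, 32.0 and 29.8 CPM at 24M. In the paired-end samples it measured 14.5, 14.7 and 16.8 CPM at 3M and 23.1, 16 and 23.5 CPM at 29M. A single sample on one side made the groups overlap in each comparison: 24M replicate 3 fell below 3M replicate 2, and 29M replicate 2 below 3M replicate 3. At 24M Cp passed the adjusted p with a log2 fold change of 0.47 (SE 0.11, adjusted p = 0.0334), under the fold change threshold. At 29M the change was 0.46 (SE 0.13, adjusted p = 0.0735). Cp was called at 24M without 24M replicate 3 (0.54, adjusted p = 0.0174) or 3M single-end replicate 2 (0.55, adjusted p = 0.0162), and at 29M without 29M replicate 2 (0.61, adjusted p = 0.00531).

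Cp is also made by the choroid plexus, whose marker sum varied widely between dissections (2070 to 8570 CPM in the 3M single-end samples, 4710 to 7890 CPM at 24M, 3530 to 6440 CPM in the 3M paired-end samples and 4160 to 6350 CPM at 29M). The choroid plexus sums overlapped between 3M and aged samples in both comparisons, and 0 of the 9 markers were called at either age. Their part in the Cp values was not tested. Cp shares 108 exonic bases with Hps3 on the opposite strand. Hps3 was not called, with 0.19 (SE 0.08, adjusted p = 0.136) at 24M and 0.25 (SE 0.10, adjusted p = 0.226) at 29M.

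Of 13 iron and copper handling genes, 12 were tested at each age and 1 was called at each. The called gene was Trf, transferrin, which oligodendrocytes and choroid plexus make in quantity. Trf rose from 44.9 ± 8.89 to 67.3 ± 5.68 CPM at 24M (SD, n = 5 each), a log2 fold change of 0.58 (SE 0.12, adjusted p = 0.0175), and by 0.92 (SE 0.09, adjusted p = 6.87e-05) at 29M.

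Aspg, an enzyme that splits asparagine (ENSMUSG00000037686, chromosome 12, 112106679 to 112127559, plus strand), measured 2.91, 3.12, 2.47, 1.43 and 1.58 CPM in the 3M single-end samples and 4.03, 3.26, 2.83, 3.68 and 5.48 CPM at 24M. In the paired-end samples it measured 1.78, 1.44 and 2.52 CPM at 3M and 4.96, 4.95 and 4.36 CPM at 29M. In the single-end samples 24M replicate 3 fell among the 3M samples, and the paired-end groups lay apart. Aspg rose by 1.34 on the log2 scale at 29M (SE 0.22, adjusted p = 0.00445). At 24M the log2 fold change was 0.71 (SE 0.23, adjusted p = 0.0829), which was not called in the fit used here but was under DESeq2 (0.72, adjusted p = 0.039). With all 4 groups in 1 fit the call moved from 29M (1.33, adjusted p = 0.0551) to 24M (0.71, adjusted p = 0.0373). That fit called 345 of 16055 genes higher at 24M and 83 at 29M. The separate fits called 210 of 15683 and 202 of 15097. With a prior, DESeq2 gave 0.30 at 29M, under the fold change threshold. Of 7 genes of asparagine metabolism, all tested, Aspg at 29M was the single call.

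**Figure D2:**
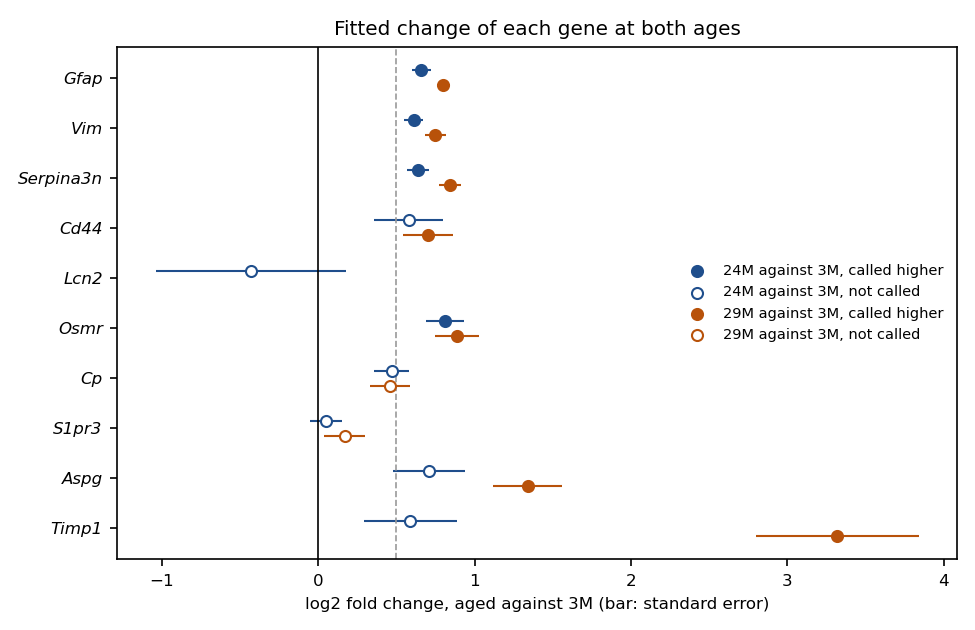
Log2 fold change of each of the 10 genes, aged against 3M of the same library type, from edgeR, with bars of 1 standard error; filled points were called higher, open points were not, and the dashed line marks the fold change threshold of 0.5. Gfap, Vim, Serpina3n and Osmr are filled at both ages, Lcn2 has no 29M point because it was not tested there, and Timp1 has the largest value, 3.32, at 29M.

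Every tested member except Cp had a larger fitted change at 29M than at 24M, so the difference between the ages was tested directly, as the 29M effect minus the 24M effect in 1 edgeR fit of all 4 groups. Over all 16055 genes 0 passed the adjusted p (0.0%), beside 1674 genes at an unadjusted p under 0.05, and none of the 10 members passed. Timp1 had the smallest p of the members, with a log2 difference of 2.75 (SE 0.66, unadjusted p = 0.000594, adjusted p = 0.392). Lcn2 followed with 4.45 (SE 1.5, unadjusted p = 0.00838, adjusted p = 0.392). For both genes the 3M paired-end libraries held at most 2 reads each, and the 3M single-end libraries between 2 and 59. For Gfap, Vim, Serpina3n and Osmr the differences were 0.13 (SE 0.09), 0.14 (SE 0.10), 0.20 (SE 0.11) and 0.09 (SE 0.20). Without 3M single-end replicate 5, Timp1 passed with 2.90 (adjusted p = 0.0477). In that fit 9 of all 15961 genes passed with a positive difference and 83 with a negative one. Age and library type vary together in this test and cannot be told apart.

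Levels can be set beside each other per length of exon. Gfap was the most abundant member in every group, with 115 ± 10.3 CPM per kilobase of exon in the 3M single-end group (SD, n = 5), 182 ± 7.91 at 24M (SD, n = 5), 110 ± 4.91 in the 3M paired-end group (SD, n = 3) and 192 ± 5.08 at 29M (SD, n = 3). Serpina3n and Vim followed at 28.4 ± 1.79 and 12 ± 0.574 CPM per kilobase in the 3M single-end group (SD, n = 5), and the samples of these 3 genes lay apart from one another in every group. S1pr3 and Cp came next, at 2.90 ± 0.381 and 2.09 ± 0.308 CPM per kilobase in the 3M single-end group (SD, n = 5), and their samples overlapped in both single-end groups and lay apart in both paired-end groups. Cd44, Aspg, Osmr, Timp1 and Lcn2 were all under 1 CPM per kilobase in both 3M groups, and in the 3M single-end group each of them overlapped the next in order. At 29M the order was Aspg, Timp1, Cd44, Osmr and Lcn2, with 1.35 ± 0.0975 CPM per kilobase for Aspg and 0.368 ± 0.1 for Lcn2 (SD, n = 3). The samples of Aspg, Timp1 and Cd44 overlapped their neighbours in that order, and those of Osmr and Lcn2 lay apart. Gfap alone made up 73.4% to 78.2% of the summed CPM of the 10 genes in every sample, so any sum over them mostly reads Gfap.

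**Figure D3:**
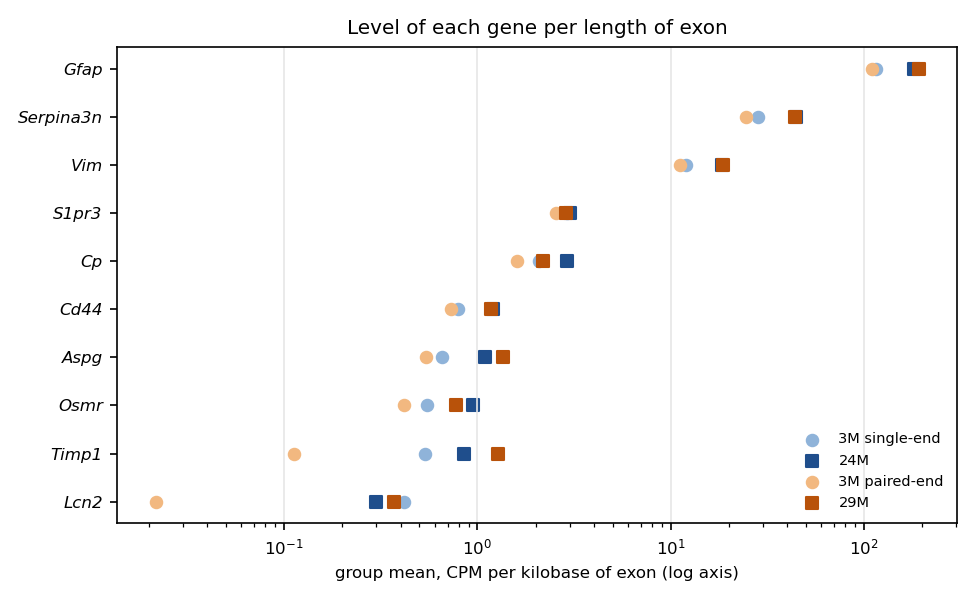
Group mean of each gene in CPM per kilobase of exon, on a log axis, with circles for the 3M groups and squares for the aged groups. The genes span from Gfap, at 110 to 192, down to Lcn2, at 0.0216 to 0.419, and the squares lie to the right of the circles of the same library type for every gene except Lcn2 in the single-end libraries.

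Astrocyte genes of the healthy state were set beside the members. Of 15 homeostatic astrocyte genes, all tested, 0 were called at either age, a count that does not stand apart from the 1.34% of all genes called higher. Their median log2 fold change was 0.02 at 24M and 0.03 at 29M. Of the 15, 9 lay above 0 at 24M and 11 at 29M, beside 49.2% and 49.4% of all genes. Slc1a2, the main glutamate transporter of astrocytes, measured 0.02 (SE 0.05) at 24M and 0.03 (SE 0.04) at 29M, and Gja1, the gap junction protein connexin 43, 0.08 (SE 0.05) and -0.09 (SE 0.04). S100b, a calcium-binding protein, came nearest to a call, with 0.49 (SE 0.05, adjusted p = 0.000172) at 24M and 0.39 (SE 0.05, adjusted p = 0.00041) at 29M, both under the fold change threshold. The water channel gene Aqp4 passed the adjusted p at 24M with 0.40 (SE 0.09, adjusted p = 0.0279) and measured 0.07 (SE 0.04) at 29M. Fgfr3 passed the adjusted p at 29M with 0.16 (SE 0.04, adjusted p = 0.0412), under the fold change threshold. The lowest value at 24M was that of Aldh1l1, with -0.26 (SE 0.07, adjusted p = 0.0516), and at 29M it measured 0.06 (SE 0.06). The homeostatic genes named here were picked after their values had been seen.

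The summed level of the 15 genes ran from 8820 to 9490 CPM in the 3M single-end samples and from 9140 to 9680 CPM at 24M, and from 8330 to 8630 CPM in the 3M paired-end samples and from 8630 to 8840 CPM at 29M. Slc1a2 was the largest part of that sum, with a mean of 3660 CPM beside a mean sum of 9210 CPM in the 3M single-end group. Relative to the summed level in the same sample, Gfap stood at 5.27 ± 0.492 CPM per 100 CPM in the 3M single-end group (SD, n = 5). At 24M it stood at 8.21 ± 0.515 (SD, n = 5). In the paired-end groups it stood at 5.5 ± 0.337 at 3M and 9.29 ± 0.263 at 29M (SD, n = 3 each). The ranges did not overlap, 4.60 to 5.99 against 7.65 to 9.02 at 24M and 5.12 to 5.77 against 9.08 to 9.58 at 29M. A two-sided exact permutation test gave p = 0.00794 at 24M and p = 0.1 at 29M, in each case the smallest p the design allows. Gfap itself already lay apart in the same samples and the sum varied little. The test therefore repeats the Gfap comparisons above and adds no separate evidence.

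**Figure D4:**
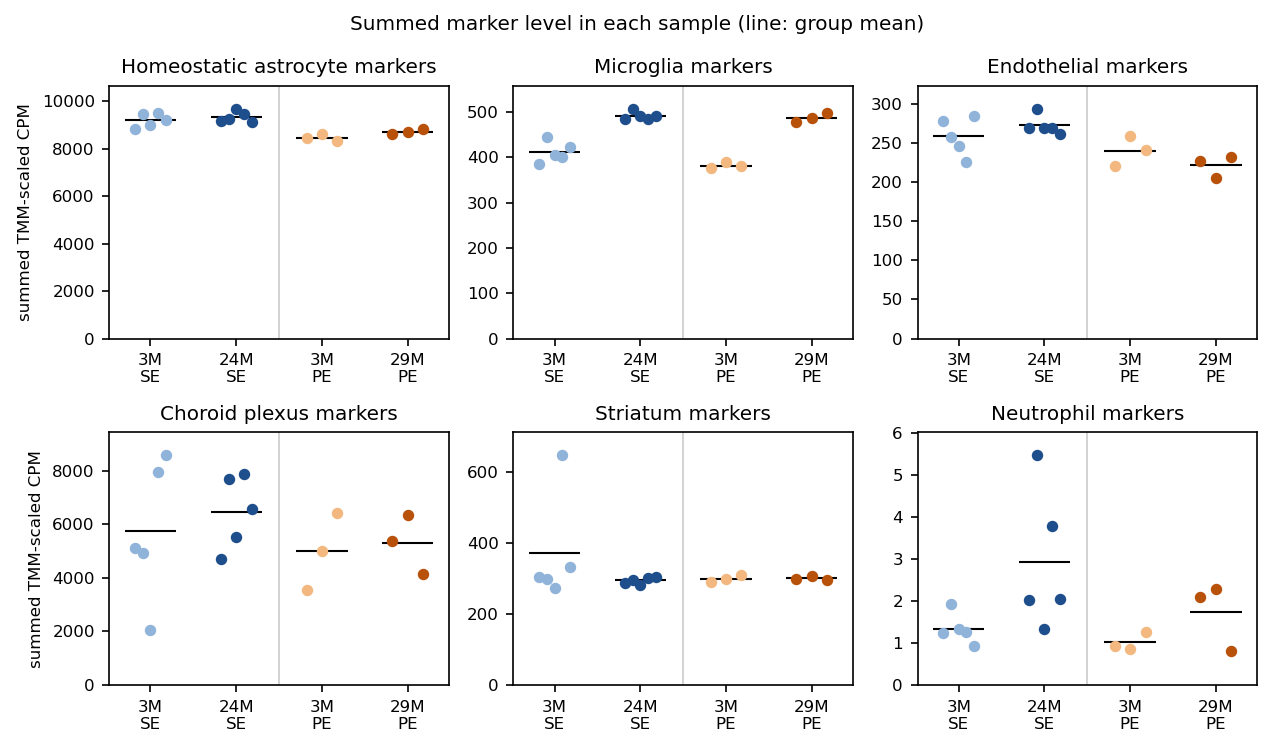
Summed TMM-scaled CPM of 6 marker lists in each sample, single-end (SE) on the left and paired-end (PE) on the right of each panel, with lines at group means. Homeostatic astrocyte sums overlap between 3M and 24M, whereas the highest 3M paired-end sum and the lowest 29M sum both round to 8630 CPM. Microglia sums of all aged samples lie above those of all 3M samples of the same library type. In the striatum panel 3M single-end replicate 4 stands apart at 646 CPM.

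The summed level of 10 microglia markers was higher in the aged samples. It measured 386 to 446 CPM in the 3M single-end samples and 484 to 507 CPM at 24M, and 377 to 389 CPM in the 3M paired-end samples and 479 to 497 CPM at 29M, without overlap. All 10 microglia markers were detected in every group, 2 were called higher at each age, 9 lay above 0, and the list median was 0.35 at both ages on the log2 scale. Fcrls was the marker below 0, with -0.17 (SE 0.09) at 24M and -0.06 (SE 0.07) at 29M. Microglia can express Cd44, Osm and Ptpn6, and the part of microglia in the values of the members was not tested. All 5 blood markers also lay above 0 on the log2 scale at both ages, with medians of 1.32 at 24M, where 0 were called, and 0.79 at 29M, where Hba-a1 (0.95, adjusted p = 0.0307) and Alas2 (0.85, adjusted p = 0.0478) were called higher. Their sum ranged over 53.3 to 108 CPM in the 3M single-end samples, 76.3 to 544 CPM at 24M, 70.6 to 83.7 CPM in the 3M paired-end samples and 75.9 to 165 CPM at 29M, and its part in the values of the members was not tested.

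Further genes used to classify reactive astrocytes were listed as well. The list of A1 genes, named for astrocytes exposed to inflammatory signals, had 13 genes of which 12 were tested at each age, with 1 called higher at 24M and 6 at 29M. The median log2 fold change was 0.40 at 24M and 0.73 at 29M, and all 12 lay above 0 at both ages. C3, the central complement component, rose from 3.39 ± 1.46 to 13.6 ± 0.923 CPM at 24M (SD, n = 5 each) and from 4.42 ± 0.842 to 18.3 ± 1.63 CPM at 29M (SD, n = 3 each), a log2 fold change of 2.04 at both ages (SE 0.24 and 0.13, adjusted p = 0.000524 and 3.43e-06). The other 5 called at 29M were the antigen presentation genes H2-T23 (0.87, SE 0.12) and H2-D1 (0.91, SE 0.10), the immunoproteasome subunit Psmb8 (0.87, SE 0.20), the interferon-induced GTPase Gbp2 (0.78, SE 0.15) and the complement inhibitor Serping1 (0.70, SE 0.14). Several of these genes are also expressed by microglia and by cells of vessels.

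The list of A2 genes, named for astrocytes after ischaemia, had 12 genes, of which 10 were tested at 24M with 0 called and 8 at 29M with 1 called higher. That gene was Cd109, a surface protein that binds transforming growth factor beta, with 0.54 (SE 0.11, adjusted p = 0.0138). Of 3 further pan-reactive genes, 2 were tested at each age and 0 were called. The small heat shock protein gene Hspb1 measured -0.31 (SE 0.33) at 24M and 0.35 (SE 0.20) at 29M. Steap4, a metalloreductase, measured 0.45 (SE 0.42) at 24M and was not tested at 29M. Cxcl10, a chemokine induced by interferon, was not tested at 24M and measured 1.52 (SE 0.49, adjusted p = 0.122) at 29M.

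**Figure D5:**
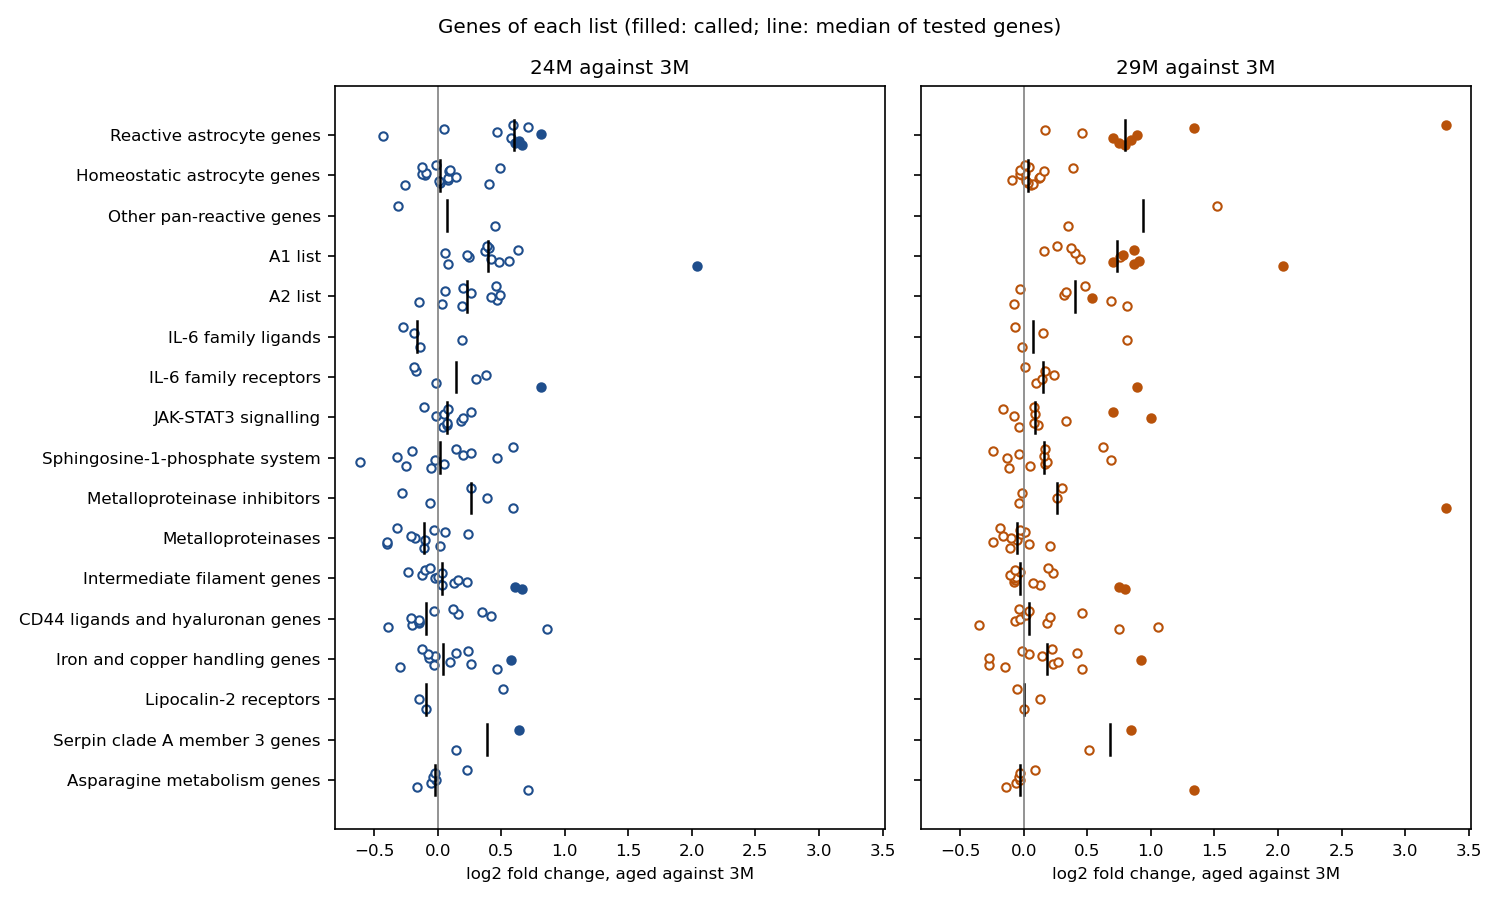
Log2 fold change of every tested gene of each list at 24M (left) and 29M (right), with filled points for called genes and a vertical line at the list median; genes in 2 lists appear in both. The median of the reactive astrocyte genes lies at 0.60 and 0.80, that of the homeostatic astrocyte genes at 0.02 and 0.03, and the A1 list at 0.40 and 0.73.

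Because 7 of these genes were called in 1 direction at 29M, the 250 bases before each of their RefSeq gene starts (build GRCm38.p6) were read for the letters of 5 motifs on both strands, and all 10 members had a window, Cp with 2. The windows of 3 genes are shown because they carry the largest level (Gfap), a call at both ages with a match (Serpina3n) and the largest fold change (Timp1). Capitals mark a match to the NF-kB letters GGNNTTTCC, and lower case without capitals means that none of the 5 motifs was found.
Gfap, chr11:102897201-102897450, minus strand: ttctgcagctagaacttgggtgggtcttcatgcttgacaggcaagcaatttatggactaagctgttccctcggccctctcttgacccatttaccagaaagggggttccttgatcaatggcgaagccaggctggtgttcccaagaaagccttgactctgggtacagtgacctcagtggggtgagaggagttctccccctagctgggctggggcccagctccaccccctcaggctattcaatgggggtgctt
Serpina3n, chr12:104406458-104406707, plus strand: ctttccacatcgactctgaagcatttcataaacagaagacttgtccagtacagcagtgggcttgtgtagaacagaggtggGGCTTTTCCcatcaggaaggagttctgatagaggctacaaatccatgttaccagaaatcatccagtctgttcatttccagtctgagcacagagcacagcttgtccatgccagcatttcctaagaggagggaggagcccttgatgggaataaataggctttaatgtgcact
Timp1, chrX:20869916-20870165, plus strand: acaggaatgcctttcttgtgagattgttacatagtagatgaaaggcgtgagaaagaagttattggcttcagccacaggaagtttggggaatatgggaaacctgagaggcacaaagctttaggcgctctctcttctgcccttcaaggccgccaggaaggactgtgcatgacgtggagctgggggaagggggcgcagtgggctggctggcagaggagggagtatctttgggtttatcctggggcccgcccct

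The STAT letters TTCNNNGAA, found in 7.02% of 32851 promoter windows of the same length, were in 0 of the 10 members, and the interferon response core GAAANNGAA, found in 7.13% of windows, was in 0 as well. The NF-kB letters were in 3 members, Vim, Serpina3n and Cp, and in 4.93% of windows. The C/EBP letters TTGCNNAA were in Lcn2 and Cp, and in 9.56% of windows. The AP-1 letters TGANTCA were in Cp alone, and in 6.75% of windows. No matches of different motifs overlapped in these windows. The match in Serpina3n began 170 bases before the gene start, that in Vim 223 bases and that in Lcn2 216 bases. These matches describe letters in a window and were not tested as binding sites.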

How the data were processed

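RNA-seq counts per gene from 17 mouse hippocampus libraries were used. The authors aligned reads to GRCm38.p2 with STAR 2.3.0, counted them with HTSeq and deposited raw counts without normalization. Their gene annotation and strand setting are not given in the sources used here. Rows without a gene (23.94% to 40.35% of a library's total) were left out. Identifiers were named from GENCODE M21 (36602 of 38355), which also gave exon lengths and coordinates.

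Comparisons were made within a library type in edgeR 4.0.16 (R 4.3.3), with TMM, filterByExpr, the quasi-likelihood F test and Benjamini-Hochberg adjustment over all tested genes, at the thresholds of the study's methods. The standard error (SE) is the size of the log2 fold change over the root of F. The rounded mean of 24M replicates 1 and 4 entered as 1 sample. The p-values of the fits set a difference between groups against the spread between these samples. Steps were tested on simulated data.

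The alternatives were DESeq2 1.42.0 with and without a prior, its size factors in edgeR, no filter (at least 1 count), a filter at 1 CPM, all 4 groups in 1 fit, the replicate number as a block, the 24M pair kept apart or left out, no fold change threshold, and each library left out. Marker sums were also computed on raw library totals. The members and gene lists were chosen with earlier results of these data known. Genes named are every member, each called gene of a pathway list, and a fixed set of partners and relatives. Slc1a2, Gja1, S100b, Aqp4, Aldh1l1, Fgfr3, Cldn5, Fcrls, Hba-a1 and Alas2 among the markers were named after their values were seen. So were Syn1 and Hps3 as overlapping genes, Mmp3, Mmp12, Tgm1 and Slc10a6 as untested genes of the lists, and Sphk2.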

Additional observations from a re-analysis of the deposited data

How the results depend on the processing

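The number of members called higher was 4 or 5 at 24M and 5 to 9 at 29M under every alternative run except DESeq2 with a zero-centred prior, where 3 were called at 29M, Gfap, Vim and Serpina3n. The calls over all genes shifted as well. At 29M the fit used above called 202 of 15097 genes higher and the prior 23 of 15097. All 4 groups in 1 fit gave 83 of 16055 there, and no filter 368 of 24470. No member was called lower under any alternative. Gfap, Vim and Serpina3n were called in all 21 fits at 24M and all 14 at 29M, and Osmr in 21 and 13. Leaving out each library gave 0 to 1 members whose 29M effect differed from their 24M effect, the 1 being Timp1 without 3M single-end replicate 5. That fit passed 9 of all 15961 genes with a positive difference and 83 with a negative one. Fits that leave out a library of the 24M pair use the other library of the pair in its place. Depth limits Lcn2 and Timp1, which had at most 59 reads in any library.

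Turns in sign other than those of Lcn2 were of values near 0. Lcn2 at 24M measured 0.57 with the replicate block and -0.72 to 0.31 with 1 library left out, and S1pr3 at 24M measured -0.01 with the block. The log2 difference between the ages was -0.02 for Cd44 and -0.02 for Osmr under DESeq2 with a prior, and with 1 library left out it ranged from -0.04 to 0.23 for Cd44, -0.01 to 0.18 for Osmr, -0.12 to 0.12 for Cp and -0.02 to 0.20 for S1pr3. The cause was not tested.

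Libraries of the same replicate number did not deviate together, with correlations of their deviations from the group means of -0.179 to 0.0574 for the 24M comparison and of -0.1 to 0.113 for the 29M comparison, and 0 of 4 and 1 of 3 aged samples correlated best with their own number. The block left the count of members called higher at 4 at 24M and 7 at 29M, with 0 lower at both ages and 0 members differing between the ages. Over all genes it called 58 of 15683 higher at 24M and 203 of 15097 at 29M. With the 24M pair kept apart, 5 members were called higher at 24M, the A1 list had 2 calls in place of 1, and 1 gene each was called in 6 lists that had none: the further pan-reactive, A2, metalloproteinase, CD44, Lcn2 receptor and asparagine lists (in the last, Aspg). Over all genes, 313 of 15749 were then called higher at 24M, beside 210 of 15683 with the pair averaged. On raw library totals, marker sums moved by less than 1 SD between replicates.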
